A study of Mus musculus with 13 samples.

Results

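A group of 8 genes of the acute phase and interleukin-1 (IL-1) system was followed in the olfactory bulb of mice exposed to fine particulate matter (PM2.5): Lcn2, Lrg1, Il1a, Il1b, Il1r1, Il1rap, Il18 and Il33. They are 8 of the 34745 genes in the deposited table, taken by symbol, and they were selected on their responses to both doses, the low dose against its controls and the high dose against its controls, which were already known. Their dose responses are therefore given as a description. So is the comparison of unexposed bulbs between the sets, since the same control libraries were the reference of those responses. All 8 genes were among the 17467 that passed the filter on low counts and were tested.

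Bulk RNA of whole olfactory bulb, the first relay of smell in the brain, was sequenced in 13 libraries of wild-type C57BL/6 mice, 7 to 8 weeks old per the sample labels. A 1st set held 4 control libraries without treatment and 3 libraries of mice labelled as given PM2.5 at 3 mg/kg/3 day, here the low dose. A 2nd set held 3 control libraries without treatment and 3 libraries at 10 mg/kg/3 day, here the high dose. The sources used here do not give the meaning of "/3 day" or of the set names, the route of exposure or how the replicates were drawn. The p-values therefore reflect only the variation among these samples, which may be technical.

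Libraries of the 1st set held 13.03 to 14.7 M counts and those of the 2nd 15.4 to 27.0 M (M, 1000000 counts), and between 20406 and 21316 genes had a count in a library. The 8 defining markers of olfactory bulb neurons summed to 2443 to 3192 CPM (counts scaled to 1000000 by the TMM-adjusted library total) in every library. The series text describes male mice. In every 1st-set library, however, Xist, the transcript of an inactivated X, reached 2245 to 2712 CPM and 4 Y-linked genes together at most 0.210 CPM. Every 2nd-set library showed the reverse, with Xist between 0.0992 and 0.555 CPM and the Y-linked sum between 177 and 230 CPM. Set, dose and sex-linked expression cannot be told apart between the sets, so each dose was set only against controls of the same set.

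The IL-1 system is an early alarm of innate immunity. The cytokines IL-1α and IL-1β bind the receptor IL1R1, which then recruits the accessory chain IL1RAP, and the adaptor MYD88 carries the signal to NF-κB and MAP kinases. IL-18 and IL-33 belong to the same cytokine family and use receptors of their own, of which the IL-33 receptor also pairs with IL1RAP. LCN2 (lipocalin-2) is a secreted protein that captures bacterial iron carriers and is made by neutrophils, reactive astrocytes and other cells. LRG1 (leucine-rich alpha-2-glycoprotein 1) is a secreted protein that modulates TGF-β signalling in endothelium. Both belong to the acute phase proteins, which IL-1 and IL-6 family cytokines induce through NF-κB, STAT3 and C/EBP factors.

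The genes lie on 6 chromosomes (mm10, positions as deposited), and each is annotated as protein coding. Il1a (chromosome 2, 129299610 to 129309972, minus strand) and Il1b (chromosome 2, 129364570 to 129371139, minus strand) are neighbours. Lcn2 lies far from them on the same chromosome (32384633 to 32388252, minus strand). Lrg1 is on chromosome 17 (56119680 to 56121946, minus strand), Il1r1 on chromosome 1 (40225080 to 40317257, plus strand) and Il1rap on chromosome 16 (26581704 to 26730117, plus strand). Il18 is on chromosome 9 (50575273 to 50581837, plus strand) and Il33 on chromosome 19 (29925114 to 29960718, plus strand).

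The promoters of the 5 genes with the highest fitted responses are shown because they let the upstream sequence be read beside the responses. They come from RefSeq (GRCm38.p6), run 5′ to 3′ on the gene's strand and end at the base before the RefSeq start or earlier. Lrg1 is shown from chr17:56122002-56122196, outside annotated exons, and Lcn2 only from chr2:32387938-32387965, a stretch that lies inside an exon annotated for another of its transcripts. Il1b is chr2:129371140-129371389, Il1a is chr2:129309973-129310222 and Il1r1, at the first of its RefSeq starts, is chr1:40224830-40225079. Capitals mark matches to the motifs searched.
Lrg1: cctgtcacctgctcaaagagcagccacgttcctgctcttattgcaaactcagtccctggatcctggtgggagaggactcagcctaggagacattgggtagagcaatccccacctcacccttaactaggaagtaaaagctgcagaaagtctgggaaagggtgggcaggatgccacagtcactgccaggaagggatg
Lcn2: gcccttcctgTTGCTCAAccttgcacag
Il1b: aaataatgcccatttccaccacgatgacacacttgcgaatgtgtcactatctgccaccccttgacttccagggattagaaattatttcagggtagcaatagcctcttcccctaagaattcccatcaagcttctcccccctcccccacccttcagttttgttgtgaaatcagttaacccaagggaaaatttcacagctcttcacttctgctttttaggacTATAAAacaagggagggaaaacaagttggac
Il1a: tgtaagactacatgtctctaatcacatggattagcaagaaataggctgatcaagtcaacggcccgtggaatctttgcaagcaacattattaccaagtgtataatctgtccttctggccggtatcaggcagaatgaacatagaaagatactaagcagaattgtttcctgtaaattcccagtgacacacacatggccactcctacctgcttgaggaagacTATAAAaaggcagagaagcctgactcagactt
Il1r1: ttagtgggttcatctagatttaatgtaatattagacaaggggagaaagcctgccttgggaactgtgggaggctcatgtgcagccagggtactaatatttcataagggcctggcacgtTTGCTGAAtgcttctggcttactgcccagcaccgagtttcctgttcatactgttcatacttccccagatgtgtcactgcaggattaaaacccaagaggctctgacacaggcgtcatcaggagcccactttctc

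The 4 motifs searched were looked for on both strands of the 250 bases before each start: a TATA box (TATAAA), a STAT site (TTCNNNGAA), a C/EBP core (TTGCNNAA) and the κB consensus. Over the 32817 RefSeq promoter windows of that length, 12.4% held the TATA box, 7.01% the STAT site, 9.57% the C/EBP core and 3.90% the κB consensus. Il1a and Il1b each had a sense TATA box at the usual distance, beginning 32 and 31 bases before the start. The second of the starts of Il33 had one too, beginning 29 bases before it. A sense TATA box beginning 25 to 35 bases before the start, a range chosen after the matches were seen, was present in 1.76% of all windows. Lcn2 held a C/EBP core beginning 216 bases before its start, Il1r1 one beginning 133 bases before its first start and Il33 one beginning 85 bases before its second. The single match to the κB consensus among the 8 genes lay on the minus strand, beginning 232 bases before the second start of Il1r1. The other matches were TATA boxes away from the usual distance, in Il33 beginning 203 bases before its first start and in Il18, on the minus strand, beginning 175 bases before its start. None of the 4 motifs matched the window of Lrg1 or Il1rap, which says only that these letters are not there.

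Among the acute phase genes, Lcn2 had the highest fitted response of the 8 at either dose. In the controls of the 1st set it stood at 0.302, 1.06, 0 and 0.142 CPM, and in the controls of the 2nd at 0, 0.309 and 0.494 CPM. A count of 0 in these libraries allows up to 3 counts, or 0.210 CPM in the 1st set and 0.197 CPM in the 2nd. At the low dose the libraries held 13.8, 1.18 and 1.83 CPM, and at the high dose 6.15, 19.2 and 19.0 CPM. Every exposed library lay above every control library, the lowest of them by little.

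The group means of Lcn2 were 0.375 ± 0.470 CPM (SD, n = 4) in 1st-set controls and 5.59 ± 7.09 CPM (SD, n = 3) at the low dose. In the 2nd set they were 0.268 ± 0.249 CPM in controls and 14.8 ± 7.48 CPM at the high dose (SD, n = 3 each). At the low dose the mean rests on replicate 1, which held 206 of the group's 250 counts. The fitted log2 fold change there was 3.87 (SE 1.11), and 1.98 without that library. It was 5.21 when control replicate 2, with 15 of the 21 counts of the 1st-set controls, was left out. At the high dose it was 5.70 (SE 1.20), with an edgeR adjusted p of 0.0772 over all genes, so Lcn2 passed at neither dose in spite of the separation.

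Lrg1 was separated as well. Its controls held 0.227, 0.493, 0.419 and 0.142 CPM in the 1st set and 0.395, 0.386 and 0.0617 CPM in the 2nd. Exposed libraries held 3.67, 1.04 and 2.78 CPM at the low dose and 2.33, 6.79 and 3.43 CPM at the high dose. No control library of either set reached the lowest exposed library.

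The means of Lrg1 went from 0.320 ± 0.163 CPM (SD, n = 4) to 2.50 ± 1.34 CPM (SD, n = 3) in the 1st set and from 0.281 ± 0.190 to 4.19 ± 2.32 CPM in the 2nd (SD, n = 3 each). The log2 fold change was 2.93 (SE 0.58) at the low dose, with an edgeR adjusted p of 0.359. At the high dose it was 3.81 (SE 0.60), with an adjusted p of 0.0101, the smallest of the 8 genes. Among the libraries left out in turn, 1 (control replicate 3 of the 2nd set) took Lrg1 past the threshold, to an adjusted p of 0.0558.

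**Figure D1:**
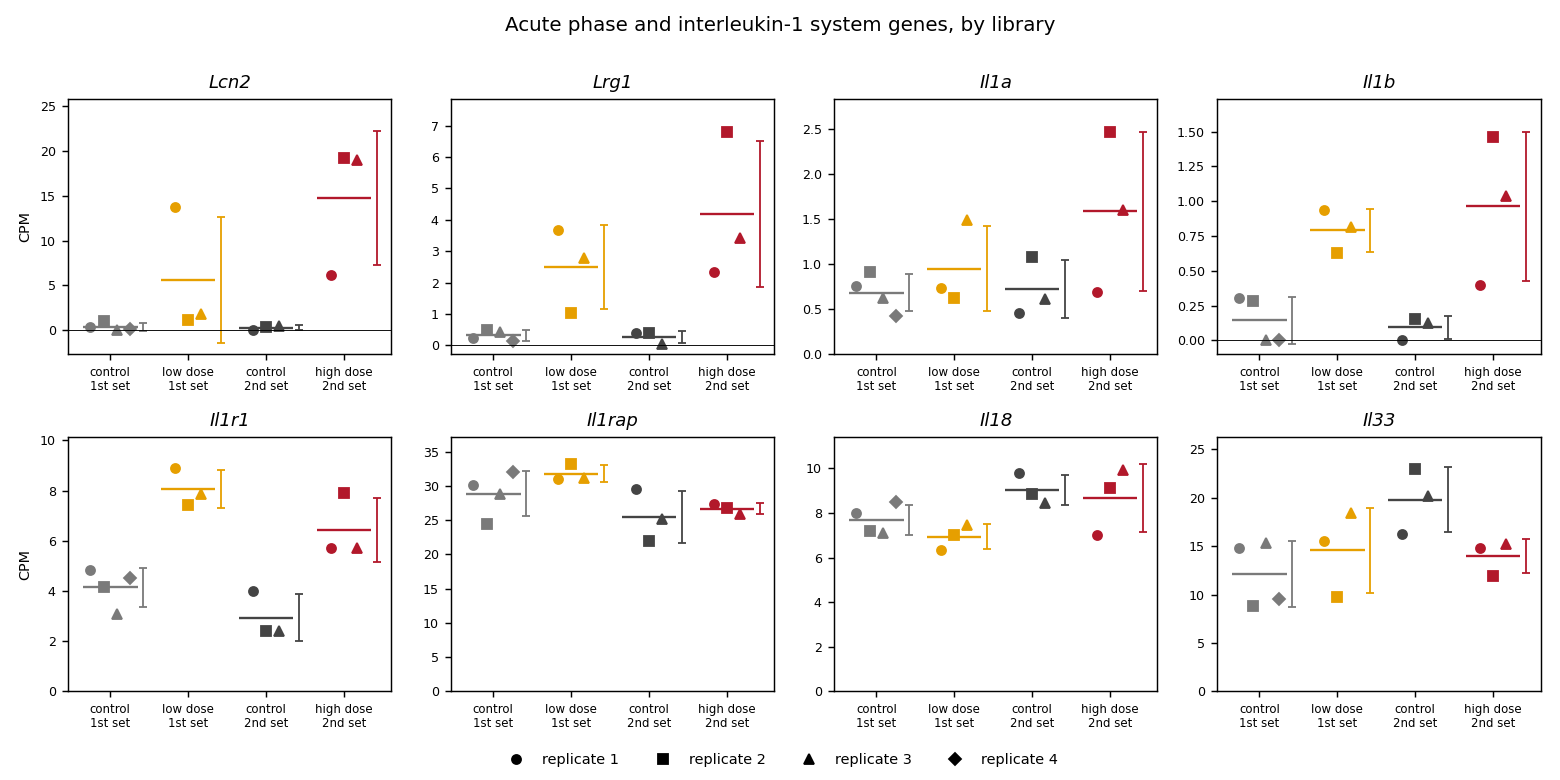
CPM (vertical axis, from 0 or just below it) of the 8 genes in each of the 13 libraries, by group; symbols give the replicate number, horizontal bars the group mean and vertical bars the SD. Lcn2, Lrg1, Il1b and Il1r1 lie above their own controls in all 6 exposed libraries, and Il33 lies below its controls in the 3 high-dose libraries.

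Of the IL-1 receptor's ligands, Il1b, the cytokine released after inflammasome cleavage, was close to the limit of detection in unexposed bulbs. Its controls held 0.302, 0.281, 0 and 0 CPM in the 1st set and 0, 0.155 and 0.123 CPM in the 2nd, from at most 4 counts in a library. Low-dose libraries held 0.935, 0.624 and 0.813 CPM, from 9 to 14 counts. High-dose libraries held 0.397, 1.46 and 1.04 CPM, from 8 to 29 counts. All 6 exposed libraries lay above all 7 controls.

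Mean Il1b went from 0.146 ± 0.169 CPM (SD, n = 4) to 0.791 ± 0.157 CPM (SD, n = 3) in the 1st set, a log2 fold change of 2.40 (SE 0.77). In the 2nd set it went from 0.0927 ± 0.0818 to 0.965 ± 0.535 CPM (SD, n = 3 each), a log2 fold change of 3.14 (SE 0.80) with an edgeR adjusted p of 0.106. DESeq2 gave an adjusted p of 0.0326 for the same change.

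Il1a, which encodes a cytokine that is active without cleavage and is released by damaged cells, was less separated. Its controls held 0.756, 0.915, 0.629 and 0.425 CPM in the 1st set and 0.460, 1.08 and 0.617 CPM in the 2nd. The exposed libraries held 0.735, 0.624 and 1.49 CPM at the low dose and 0.695, 2.47 and 1.60 CPM at the high dose. At the low dose 1 library stood above its controls and at the high dose 2 did, while the others lay among them, so the groups overlapped at both doses. Log2 fold changes were 0.48 (SE 0.50) for the low and 1.08 (SE 0.47) for the high dose, with adjusted p of 1 and 0.478. Il1a and Il1b are neighbours on chromosome 2, and their log2 levels over the 13 libraries, each taken against the control mean of the set, had a Pearson r of 0.77, given as a description.

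Il1r1, the signalling receptor for both ligands, had the smallest SD relative to its mean, in each of the 4 groups, among the 4 genes whose exposed libraries all lay above their controls. It stood at 4.84, 4.15, 3.07 and 4.54 CPM in 1st-set controls and at 8.89, 7.42 and 7.86 CPM at the low dose. In the 2nd set the controls held 4.01, 2.40 and 2.41 CPM and the high-dose libraries 5.71, 7.90 and 5.71 CPM. The exposed libraries of each set lay above all controls of both sets.

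The means of Il1r1 were 4.15 ± 0.770 CPM (SD, n = 4) against 8.06 ± 0.751 CPM (SD, n = 3) in the 1st set, a ratio of 1.94 and a fitted log2 change of 0.96 (SE 0.22, edgeR adjusted p = 0.500). In the 2nd set they were 2.94 ± 0.930 against 6.44 ± 1.27 CPM (SD, n = 3 each), a ratio of 2.19 and a fitted log2 change of 1.14 (SE 0.24, adjusted p = 0.0431). This pass lies close to the threshold: leaving out 1 library at a time moved the adjusted p between 0.0196 and 0.179, and 11 of the 13 omissions took it past 0.05.

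Il1rap, the accessory chain that IL1R1 needs, showed no such separation. Its libraries held 30.2, 24.4, 28.8 and 32.0 CPM in 1st-set controls and 30.9, 33.2 and 31.2 CPM at the low dose. In the 2nd set, controls held 29.5, 21.9 and 25.2 CPM and high-dose libraries 27.4, 26.8 and 25.8 CPM. The groups overlapped in both sets. The log2 fold change was 0.14 (SE 0.11) at the low dose and 0.07 (SE 0.12) at the high dose, with a 95% interval of -0.21 to 0.34 at the high dose. That interval does not reach the log2 fold change of Il1r1.

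Il18, made as a precursor that caspase-1 cleaves, also overlapped its controls at both doses. Controls of the 1st set held 8.01, 7.18, 7.13 and 8.50 CPM and low-dose libraries 6.35, 7.01 and 7.45 CPM. Controls of the 2nd set held 9.80, 8.85 and 8.45 CPM and high-dose libraries 7.00, 9.11 and 9.94 CPM. The log2 fold changes were -0.15 (SE 0.15) and -0.05 (SE 0.16) at the low and high dose, and the 95% interval at the high dose ran from -0.41 to 0.30.

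Il33, a nuclear cytokine that acts as an alarm signal when cells break and that oligodendrocytes and astrocytes express in the brain, was the only one of the 8 below its controls in every high-dose library. These held 14.8, 11.9 and 15.2 CPM, against 16.2, 23.0 and 20.2 CPM in the controls of the 2nd set. Low-dose libraries held 15.5, 9.78 and 18.4 CPM, against 14.8, 8.79, 15.4 and 9.57 CPM in the 1st-set controls. Of these low-dose libraries 2 lay above every control and 1 among them, so the groups overlapped. The log2 fold change was -0.50 (SE 0.24, edgeR adjusted p = 0.536) at the high dose and 0.26 (SE 0.23, adjusted p = 1) at the low dose. The difference between these responses was -0.77 (SE 0.34, adjusted p = 0.793) and did not pass.

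**Figure D2:**
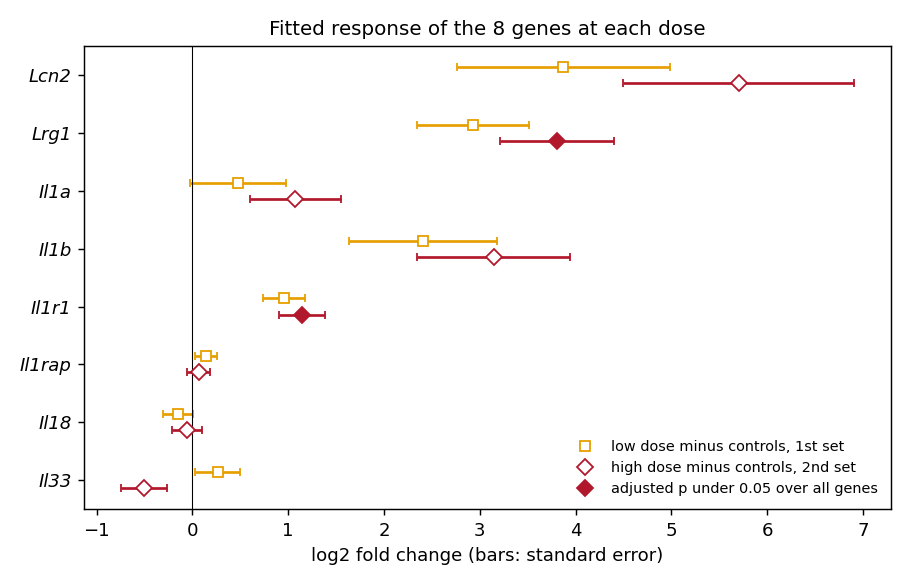
Fitted log2 fold change (horizontal axis, with its standard error as bar) of each gene at the low dose against 1st-set controls (squares) and at the high dose against 2nd-set controls (diamonds), filled where the adjusted p over all genes is under 0.05. Lrg1 and Il1r1 are filled at the high dose, and the log2 fold changes of Il1rap and Il18 lie between -0.15 and 0.14 at both doses.

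In all, 2 of the 8 genes (Lrg1 and Il1r1) passed at the high dose, where 0.641% of the genes tested passed, 91 of 112 of them higher. At the low dose 0 of the 8 passed in edgeR, as for all genes tested (0%). Of the 17467 genes, 429 had an unadjusted p under 0.05 there, and 4 of the 8 were among them. DESeq2 passed 2 at the low dose, Lrg1 (adjusted p = 0.00507) and Il1r1 (adjusted p = 0.0490), of the 7 for which it gave an adjusted p. It gave none for Lcn2 at either dose. At each dose the same 4 genes (Lcn2, Lrg1, Il1b and Il1r1) had every exposed library above every control of the set, a pattern that 6.08% of the genes tested showed at the high dose and 3.71% at the low dose. Nothing is read from these counts, because such values chose the genes. The count of 2 at the high dose rests on single libraries: it became 0 (21 genes in all) when control replicate 3 of the 2nd set was left out and 0 of 7 (4 genes in all) when each set was fitted on its own, which left Il1b untested. It stayed at 2 without replicate 3 of the 1st-set controls or replicate 1 of the 2nd-set controls, was 2 with Lcn2 in place of Il1r1 without replicate 1 of the low dose, and was 1 (Lrg1) without any of the other 9 libraries. For the difference between the dose responses 0 of the 8 passed, against 0.00573% of all genes, and its standard errors reached 1.87 for Lcn2. The data therefore do not show that the doses differed for any of the 8, and they do not show that they acted alike.

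Of the 4 separated genes, 3 entered the test only through exposed libraries. The filter asked for about 0.682 CPM in at least 3 libraries, and this level was met in 1 control library for Lcn2 and in 0 for Lrg1 and Il1b. In bulk RNA a change in the number of cells that express a gene and a change in RNA per cell cannot be told apart.

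The controls of the sets were then compared. The contrast itself did not choose the genes, but its libraries were the baselines of the responses that did, so its p-values are not independent of the choice. Of the 8 genes, 1 passed: Il33 was higher in unexposed bulbs of the 2nd set, at 19.8 ± 3.39 CPM (SD, n = 3), than of the 1st, at 12.1 ± 3.43 CPM (SD, n = 4), with every 2nd-set control above every 1st-set control. The log2 fold change was 0.71 (SE 0.23, edgeR adjusted p = 0.0443). Of all genes tested 19.3% passed in this contrast. The result is near the threshold: leaving out 1 library at a time gave adjusted p from 0.0275 to 0.177, past 0.05 in 8 of 13 omissions (replicates 2 and 4 of the 1st-set controls, replicates 2 and 3 of the 2nd-set controls, replicate 1 of the low dose and each of the 3 high-dose libraries). High-dose Il33 (13.99 ± 1.80 CPM) and low-dose Il33 (14.6 ± 4.40 CPM, SD, n = 3 each) lay between these control means. The high-dose comparison of Il33 and this one share the 2nd-set controls.

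The other 7 genes overlapped between the control groups and did not pass. Il1r1 stood lower in the 2nd set, by a log2 difference of -0.51 (SE 0.23, adjusted p = 0.130). For Lcn2 and Il1b, which are rare in unexposed bulbs, the 95% intervals of this contrast ran from -4.14 to 3.28 and from -2.83 to 1.91 on the log2 scale, so sizeable differences were not detectable at this depth. Set and sex-linked expression cannot be told apart in this contrast.

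Levels of different genes can be compared only per length. The deposited FPKM (fragments per kilobase of gene and 1000000 fragments) divides by lengths that were computed here from count and FPKM, and for 5 of the 8 genes these exceed the annotated exon length, by 1.23-fold for Il1b to 1.86-fold for Lcn2. For Lcn2 the length behind the FPKM is 4867 bases, longer than the gene's own span of 3620 bases and its 2623 bases of annotated exon. For Lrg1 and Il1a both lengths nearly coincide. Levels are therefore given as CPM per kilobase of exon in GENCODE M21, beside the FPKM.

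Over the 7 control libraries Il18 was highest, at 8.03 ± 0.915 CPM per kilobase (FPKM 11.6), followed by Il33 at 5.34 ± 1.78 (FPKM 2.92) and Il1rap at 2.41 ± 0.320 (FPKM 1.83). The range of Il33 overlapped that of Il18 but not that of Il1rap. Il1r1 followed at 0.571 ± 0.157 CPM per kilobase, Il1a at 0.353 ± 0.121, Lrg1 at 0.215 ± 0.114, Lcn2 at 0.125 ± 0.140 and Il1b at 0.0646 ± 0.0689. In this lower group each gene's range overlapped that of its neighbours, and none of its ranges reached Il1rap. The order was the same by FPKM. Per length, the accessory chain thus stood above the receptor it pairs with in all 7 controls.

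In the exposed libraries Il18, Il33 and Il1rap overlapped their control ranges, and Lrg1 and Lcn2 reached into the range of these more abundant transcripts. Lcn2 ran from 0.450 to 7.33 and Lrg1 from 0.739 to 4.82 CPM per kilobase over the 6 exposed libraries. Il1r1 ran from 0.897 to 1.40 and Il1rap from 2.27 to 2.93, so the receptor stayed below its accessory chain in every exposed library. Il1b reached at most 0.765 CPM per kilobase.

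**Figure D3:**
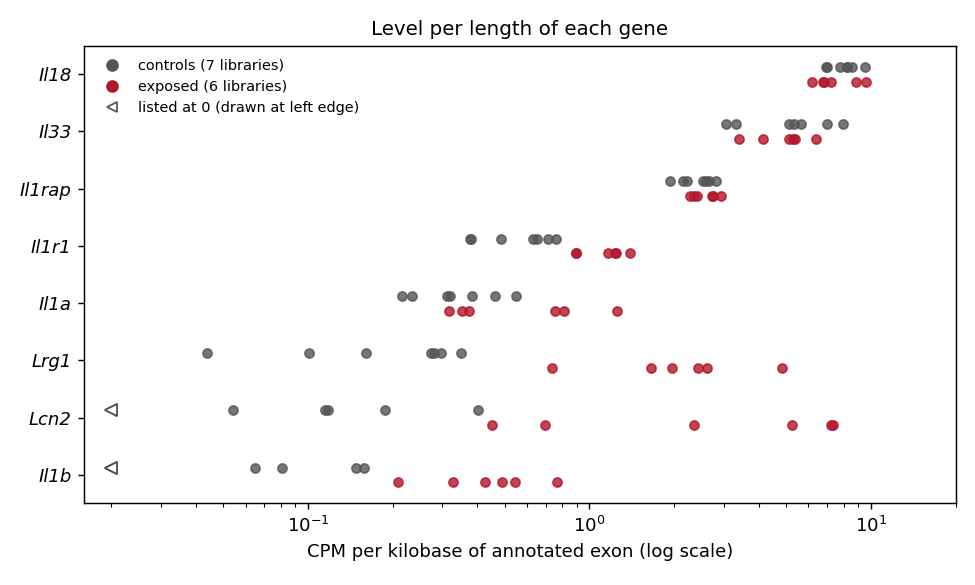
Level per length (horizontal axis, CPM per kilobase of annotated exon, log scale) of the 8 genes in the 7 control and 6 exposed libraries, ordered by control mean; triangles at the left edge stand for libraries listed at 0. Il18, Il33 and Il1rap overlap between controls and exposed libraries, while Lcn2 spans 0 to 0.402 in controls and 0.450 to 7.33 in exposed libraries.

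The strand setting of the counting is not given, so reads of overlapping genes on the opposite strand may be included. Il1b overlaps Il1bos, which held 10 counts over all libraries, and Il1a overlaps Gm14023, which held 50. Il18 overlaps Bco2 (449 counts) and Tex12 (3 counts) in the annotation, though the deposited start of Il18 lies downstream of both. Il1rap overlaps Gm20319, listed at 0. Lcn2, Lrg1 and Il33 have no annotated overlap, and Il1r1 overlaps Gm38070 on its own strand (178 counts). Of the other genes named below, Il18bp, Il1r2, Il1rapl1, Il1rapl2, Myd88, Irak3, Map3k7, Pycard, Icam1, Vcam1, Ccl2, Cp, Cebpd and Acvrl1 have such a partner on the other strand.

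Other genes of the system were taken as 8 lists of 105 genes, of which 101 have a row in the table and 70 were tested. At the high dose 6 of the 70 passed, all of them higher, against 0.641% of all genes. Sele, among the 6, entered the test only through high-dose libraries. The median log2 fold change of the 70 was 0.19 beside -0.01 for all genes. At the low dose 0 of the 70 passed in edgeR, and the median was 0.10 beside 0.00 for all genes. The lists were written with earlier results of these data known, so the counts are a description.

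Among further ligands and antagonists, Il18bp, the decoy for IL-18, was the only one tested and did not pass at either dose (log2 fold change -0.19 at the high dose). Il1rn, the antagonist of the IL-1 receptor, held 1 count over the 1st-set controls, 3 at the low dose, 0 in the 2nd-set controls and 19 at the high dose. Against a floor of 3 counts over the control group, the high-dose level was at least 5.28-fold higher. Il1f10 was listed at 0 in every library, and Il36a, Il36b, Il36g and Il36rn were not analysed here.

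Of the other receptors of the family, 0 of 4 tested passed, with a median log2 fold change of -0.10 at the high dose. Sigirr, an inhibitory receptor, had -0.40, and Il1rapl2 and Il1rapl1, synaptic relatives of the accessory chain, had -0.17 and -0.04. Il1r2, the decoy receptor for IL-1, fell short of the filter, with 7, 6 and 7 counts in 1st-set controls, low-dose libraries and 2nd-set controls and 29 at the high dose. Its high-dose libraries stood at 0.447 ± 0.103 CPM and the controls at 0.115 ± 0.0451 CPM (SD, n = 3 each). Il1rl1, the IL-33 receptor, held 17, 15, 3 and 10 counts in the same order of groups.

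The signalling chain below the receptor showed no pass among its 16 tested genes at either dose, and its median was 0.04 at the high and 0.05 at the low dose. The adaptor Myd88 came nearest, at 0.61 on the log2 scale for the high dose (SE 0.16, edgeR adjusted p = 0.144). Map3k7, the kinase TAK1, had 0.37 and Irak3, a brake on the pathway, 0.52, with adjusted p of 0.489 and 0.526.

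Of the genes that process the cytokines, 1 of 8 tested passed at the high dose. Pycard, the inflammasome adaptor ASC (chromosome 7, 127989708 to 127993867), rose from 2.51 ± 0.0416 to 5.21 ± 0.690 CPM (SD, n = 3 each), with a fitted log2 fold change of 1.05 (edgeR adjusted p = 0.0283, SE 0.20). The gene on its opposite strand, Gm45205, held 720 counts over all libraries. The Pycard call was lost in 4 of 13 omissions of 1 library (any 2nd-set control or high-dose replicate 2), with an adjusted p of up to 0.0992. Gsdmd, the pore through which mature IL-1β leaves the cell, had 1.04 (adjusted p = 0.184) and Casp4, the noncanonical inflammasome caspase, 1.82 (adjusted p = 0.243), or 1.19 without high-dose replicate 2. The list's median was 0.79 at the high and 0.33 at the low dose.

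Of 10 tested genes that IL-1 can induce, 3 rose at the high dose and 0 fell. The leukocyte adhesion molecule Icam1 rose by 2.71 on the log2 scale (SE 0.21, edgeR adjusted p = 3.69e-05). Vcam1, another adhesion molecule, rose by 0.89 (SE 0.13, adjusted p = 0.00831). Sele, the E-selectin of activated endothelium, also passed (adjusted p = 0.00497): it had 0 counts in all 7 controls, 13 counts in low-dose and 81 in high-dose libraries, at least 5.48-fold and 23.9-fold higher than a floor of 3 counts over the control group. It entered the test only through high-dose libraries, at 1.16 to 1.36 CPM. Low-dose libraries held at most 0.334 CPM, below the filter level of about 0.682 CPM, so its pass is a description. Among untested ones Ccl2 held 10 counts in 1st-set controls, 16 at the low dose, 0 in 2nd-set controls and 54 at the high dose. The high-dose level was at least 16.4-fold above the floor for the 2nd-set controls. High-dose replicate 2 held 33 of these 54 counts. Il6 held at most 3 counts in any library.

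Of the acute phase proteins, 0 of the 7 tested passed. All 7 had positive log2 fold changes at the high dose, beside 47.2% of all genes tested. They ran from 0.21 to 3.09 with a median of 1.08, and the gene at the median fell to 0.30 without high-dose replicate 2. Ceruloplasmin (Cp) had 1.23 (SE 0.28, adjusted p = 0.0727), Serpina3n 2.23 (SE 0.51, adjusted p = 0.106) and C3 3.09 (SE 0.78, adjusted p = 0.116). The latter 2 rest largely on high-dose replicate 2: Serpina3n stood at 40.3, 131 and 40.8 CPM and C3 at 0.447, 5.84 and 1.48 CPM in the high-dose libraries. Without that library the log2 fold changes were 1.42 for Serpina3n and 1.70 for C3. At the low dose C3 stood at 3.47, 1.53 and 4.54 CPM, above its controls at 0.422 to 0.605 CPM. The log2 fold change there was 2.65 (SE 0.69) and did not pass. Serpina3n, at 52.4, 17.7 and 30.6 CPM, overlapped its controls at that dose. Serpina3n has close relatives among which reads could be split. The 16 untested genes of this list, most of them made chiefly in the liver, held few counts. Saa3, the serum amyloid A made outside the liver, held 11 counts in 1st-set controls, 6 at the low dose, 0 in 2nd-set controls and 100 at the high dose, a level at least 31.3-fold higher than that floor. High-dose replicate 2 held 80 of these 100 counts. Haptoglobin (Hp) held 0, 3, 2 and 44 counts in the same order of groups, and Saa4, Apcs, Orm2 and Orm3 were listed at 0 in every library.

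On the gp130 and STAT3 axis, which carries the IL-6 family signal, 2 of 15 tested genes rose at the high dose. Osmr, the receptor chain for oncostatin M, rose from 5.49 ± 0.321 to 16.9 ± 5.91 CPM (SD, n = 3 each), with a fitted log2 fold change of 1.62 (edgeR adjusted p = 0.00242, SE 0.21). Its low-dose libraries held 18.2, 18.8 and 17.5 CPM, above their controls at 9.15 to 12.3 CPM. The log2 fold change at that dose was 0.78 (SE 0.19, edgeR adjusted p = 0.500). Cebpd, a transcription factor of acute phase genes, rose at the high dose from 4.57 ± 1.74 to 13.02 ± 2.57 CPM, or by 1.49 on the log2 scale (SE 0.26, edgeR adjusted p = 0.0166). That call was lost without control replicate 3 of the 2nd set (adjusted p = 0.0662). Socs3, the feedback inhibitor, had 1.01 at the high dose (SE 0.27, adjusted p = 0.126). Of 9 partners of LCN2 and LRG1, 0 passed. Tgfbr2, a TGF-β receptor, came nearest with 0.42 (adjusted p = 0.163), followed by Acvrl1 with 0.45 and Mmp9, which binds LCN2, with 0.59.

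**Figure D4:**
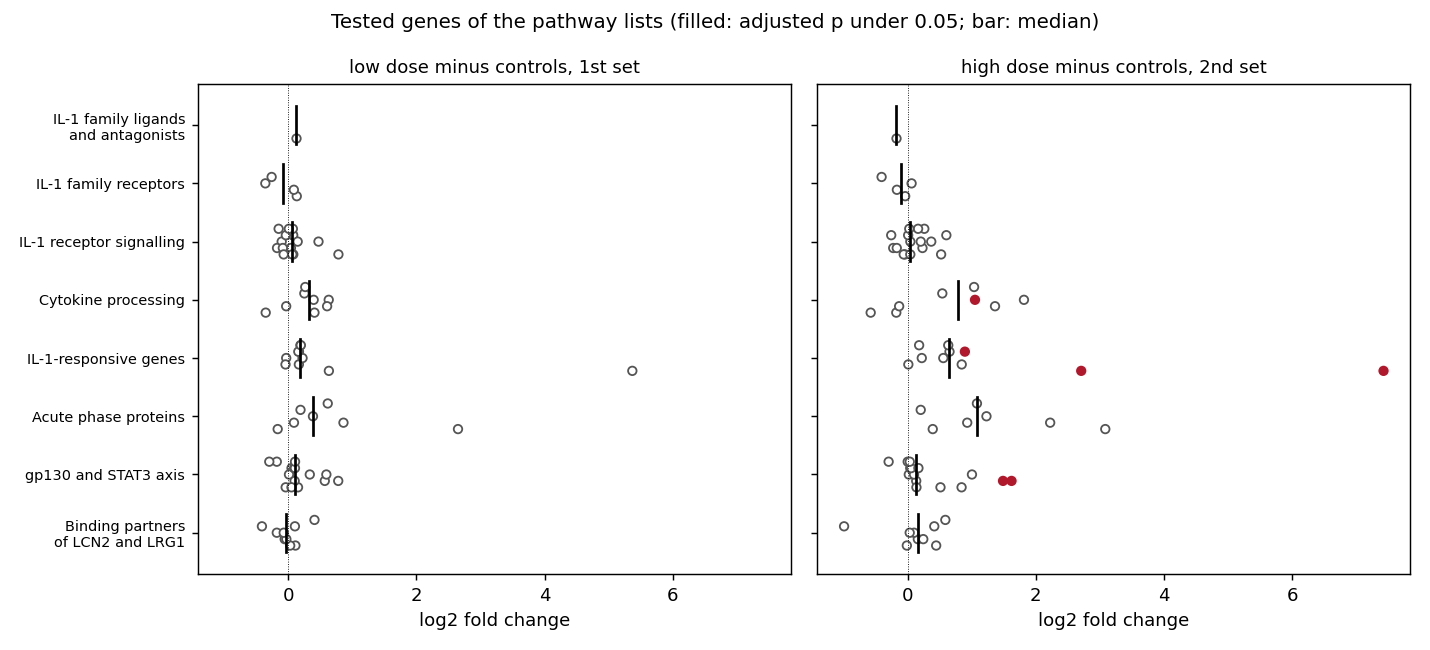
Log2 fold change (horizontal axis) of each of the 70 tested genes of the 8 lists at the low dose (left) and the high dose (right); vertical bars are list medians and filled points have an adjusted p under 0.05 over all genes. The 6 filled points, all at the high dose and above 0, are Pycard, Icam1, Vcam1, Sele, Osmr and Cebpd.

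Markers of cells that could carry these transcripts were summed in each library. The 10 neutrophil markers ran from 6.36 to 8.93 CPM in 1st-set controls, 7.56 to 10.1 at the low dose, 5.26 to 5.79 in 2nd-set controls and 11.5 to 15.4 at the high dose. None of the 10 was at 0 in every library, and 1 of the 3 tested, S100a9, passed at the high dose. S100a9 entered the test through exposed libraries. Its controls held 0.213 to 0.699 CPM, around or below the filter level of about 0.682 CPM. At the high dose 8 of the 10, all but Ly6g and Elane, had every exposed library above every control of the set, beside 6.08% of the genes tested. At the low dose 0 of the 10 did, beside 3.71%. S100a8 stood at 2.43, 4.03 and 3.55 CPM in high-dose libraries against 0.329, 1.24 and 0.740 CPM in their controls. The granule gene Ngp stood at 0.645, 1.06 and 0.479 against 0, 0.271 and 0.0617 CPM, and Retnlg at 0.645, 0.503 and 0.559 against 0.0658, 0 and 0.309 CPM. Levels were low throughout: no library held more than 3 counts of Ly6g or Elane, 4 of Mmp8, 7 of Camp, 14 of Retnlg or 21 of Ngp. The 4 monocyte markers, none at 0 in every library, ran from 0.838 to 1.97, 2.71 to 3.14, 0.329 to 0.679 and 1.29 to 3.03 CPM in the same order of groups. The monocyte sums of the exposed libraries lay above those of all controls of the set at both doses. By gene, 2 of the 4 did so at the high dose (Ly6c2 and Chil3) and 2 at the low dose (Ccr2 and Ly6c2). No library held more than 9 counts of Ly6c2. Of all genes tested, 6.08% showed this pattern at the high dose and 3.71% at the low dose. These shares cover only genes that passed the filter, as 3 of the 10 neutrophil and 2 of the 4 monocyte markers did. The part of these cells in the levels of Lcn2, Lrg1, Il1b and Il1r1 was not tested.

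The 6 perivascular macrophage markers summed to 19.4 to 29.9 CPM in 1st-set controls, 22.3 to 30.6 at the low dose, 8.64 to 14.8 in 2nd-set controls and 19.2 to 28.3 at the high dose, where Cd163 passed. Mrc1, Cd163, F13a1 and Pf4, 4 of the 6, had every high-dose library above every control of the set, beside 6.08% of the genes tested. F13a1, 1 of the 6, did so at the low dose, beside 3.71%. The 7 astrocyte markers summed to 3576 to 3786, 3535 to 3872, 3009 to 3878 and 4108 to 4569 CPM, and Gfap passed at the high dose. It was the 1 of the 7 with every high-dose library above every control of the set. Red cell transcripts, from 5 genes, ran from 97.2 to 119 CPM in 2nd-set controls and from 114 to 302 at the high dose, with none passing. Hbb-bt, Hba-a1 and Alas2, 3 of the 5, had every high-dose library above every control of the set, beside 6.08% of the genes tested. At the low dose 0 of the 5 did, beside 3.71%. Microglia markers (427 to 476 CPM over all 13 libraries), endothelial markers (163 to 269 CPM) and oligodendrocyte markers (1172 to 1758 CPM) overlapped as sums between exposed and control libraries in each set. Sall1 was the most abundant microglia marker. Without it the other 6 summed to 210 to 240 CPM in 2nd-set controls and 242 to 283 at the high dose, without overlap. In the 1st set they overlapped, at 211 to 246 CPM in controls and 231 to 255 at the low dose. At the high dose Cx3cr1 and Csf1r, 2 of the 7, had every library above every control of the set, beside 6.08% of the genes tested. Cx3cr1 varied widely within the 1st set, at 40.2, 36.3, 4.12 and 3.19 CPM in controls and 5.41, 34.5 and 38.7 CPM at the low dose. The low-dose library at 5.41 CPM is replicate 1, which held most of the low-dose Lcn2 counts. The cause of this split was not tested. The sums of the 6 choroid plexus markers did not overlap in either set, and 0 of 5 tested passed. They were 39.2 to 46.9 CPM in 1st-set controls and 52.0 to 58.8 at the low dose. In the 2nd set they were 17.3 to 30.3 in controls and 31.2 to 58.1 at the high dose. This separation came from Aqp1, a water channel found in other cells as well: the other 5 markers summed to 9.15 to 11.6, 8.74 to 11.7, 3.21 to 6.84 and 5.51 to 8.98 CPM in the same order of groups and overlapped in both sets. Meningeal fibroblast markers ran from 169 to 335, 181 to 363, 64.5 to 96.5 and 71.5 to 130 CPM in the same order of groups. The 6 markers listed for the olfactory epithelium ran from 20.3 to 61.4, 15.8 to 28.4, 25.4 to 32.0 and 27.1 to 58.7 CPM. Ermn was the most abundant of them, at 14.4 to 35.4 CPM over the 13 libraries. Without Ermn the other 5 summed to 1.20 to 38.2, 0.139 to 14.03, 0.197 to 8.64 and 0.248 to 23.2 CPM. These sums varied widely within groups and overlapped in both sets. Single libraries stood out, such as high-dose replicate 3 with Bpifa1 at 18.4 CPM and 1st-set control replicate 1 with Cyp2a5 at 23.3 CPM. Liver markers stayed between 0.555 and 2.24 CPM. No marker of any list was at 0 in every library. Whether any of these cells bears on the 8 genes was not tested.

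**Figure D5:**
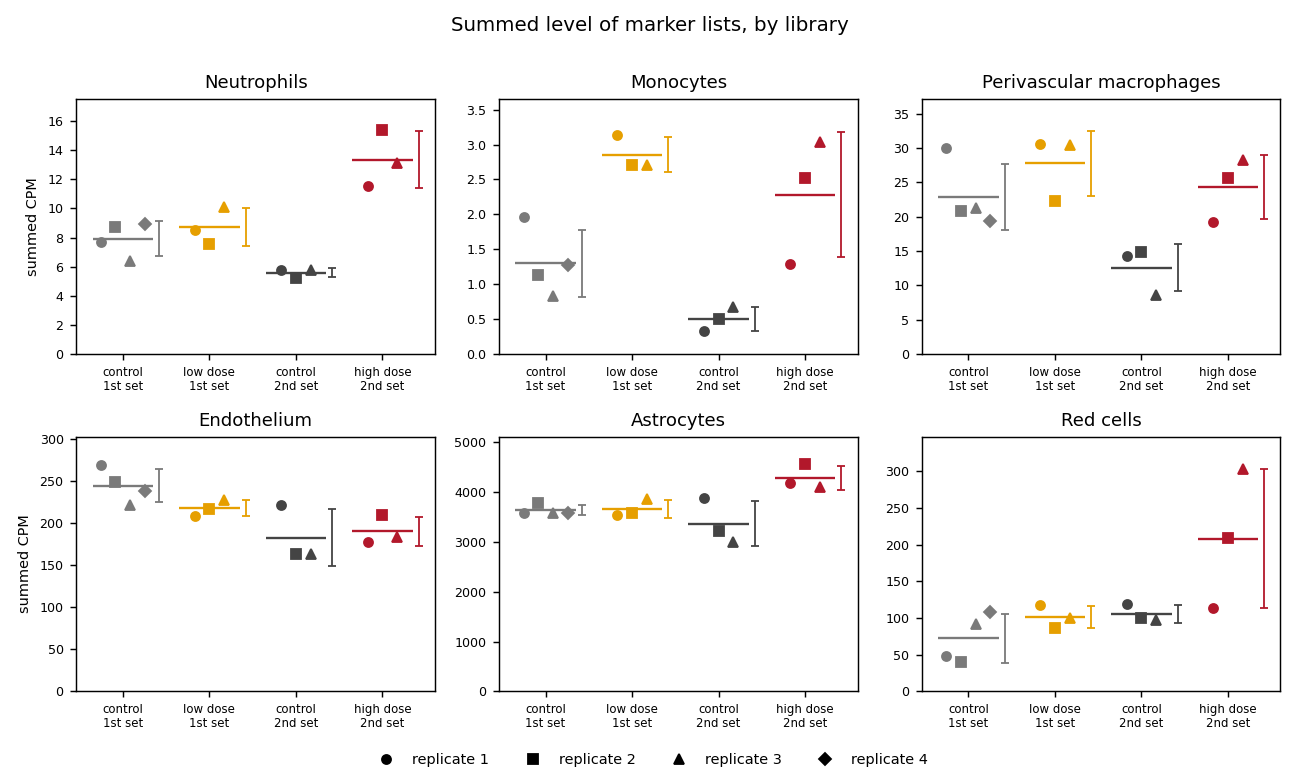
Summed CPM of 6 marker lists (vertical axes from 0) in each library, by group; symbols give the replicate number, horizontal bars the mean and vertical bars the SD. At the high dose the neutrophil sums (11.5 to 15.4) lie above all controls, while endothelial sums overlap their own controls.

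Some of the 8 genes varied together over the libraries. Taken against the control mean of each set, Lcn2 had a Pearson r of 0.87 with Lrg1, 0.92 with Il1b and 0.81 with Il1r1 over the 13 libraries, and Lrg1 and Il1r1 had 0.89. Il1a had r between 0.50 and 0.77 with these 4 genes. Il1rap had 0.53 with Il1r1, the receptor it pairs with, and between -0.27 and 0.21 with each of the others. Il18 had at most 0.11 with any of the other 7 genes, and Il33 was below 0 with every one of them. These values are a description, since the libraries share groups and the genes were chosen for their responses. Among about 13854 genes with a mean of at least 1 CPM, the patterns most like Lcn2 were those of Htra1 (r = 0.93), Ier3 (0.92) and Plin4 (0.92), and for Lrg1 those of Ccl12 and Cdkn2c (0.94 each) are given. For Il1r1 they were Cdkn2c (0.96), Ptprc (0.92) and C3ar1 (0.91), and for Il1b Spint1 (0.93), Lcn2 (0.92) and Cyth4 (0.90).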

How the data were processed

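The authors deposited, for each of the 13 libraries, a raw read count and an FPKM value per gene, 34745 genes in all. Per the labels, RNA was extracted with a Qiagen RNeasy mini kit and libraries were stranded total RNA (Illumina TruSeq). The submitters' processing notes name HISAT2 and mm10. The sources used here do not give the counting program, annotation release or strand setting. From the deposited counts, edgeR 4.0.16 (R 4.3.3; robust quasi-likelihood test, TMM factors, low counts filtered by filterByExpr) fitted 4 groups at once with 9 residual degrees of freedom, and p-values were adjusted by Benjamini-Hochberg over 17467 genes, called at 0.05. Standard errors were derived from the log2 fold change and F and are approximate. CPM used TMM-adjusted totals. The scripts were tested on simulated data. Alternatives were DESeq2 1.42.0, RLE factors, other filters, limma 3.58.1 on log2(FPKM + 1), each set alone, a replicate block and leaving out each library. Replicates always differed by more than sampling noise (lowest chi-square per gene 6.10). A count of 0 was read as allowing up to 3 counts, a floor that covers counting error only. Gene models came from GENCODE M21, promoters from RefSeq (GRCm38.p6), with all 8 genes matched by symbol.

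The 8 genes, the pathway and marker lists and the naming rule were chosen with earlier results of these data known. The rule names the 8 genes, up to 3 genes of each list with the smallest p at the high dose, any list gene that passed, and the 3 genes most alike for 4 of the 8, of which 1 is not reported here. Untested list genes were named after their counts were seen.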

Additional observations from a re-analysis of the deposited data

How the results depend on the processing

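At the high dose the count of 2 among the 8 genes was 3 with DESeq2 (Lrg1, Il1b and Il1r1, of 7 with an adjusted p, as Lcn2 had none), 2 with RLE factors and without the filter, 1 with limma on log2(FPKM + 1), 0 when at least 1 CPM was asked of every library (which left 4 of the 8 to test), 0 with each set fitted on its own (7 tested, without Il1b), and 0 to 2 when 1 library was left out. At the low dose the count of 0 was 2 with DESeq2 and 0 in all 13 omissions. Between the control groups the count of 1 was 0 with at least 1 CPM in every library, 0 with limma and 0 to 2 in the omissions. For the difference between the dose responses it was 0 throughout, of 5 with an adjusted p in DESeq2. Of the list genes, the 6 at the high dose were 11 with DESeq2, 1 with each set on its own and 4 to 7 in the omissions, and the 0 at the low dose were 2 with each set on its own. Over all genes the 112 calls at the high dose were 291 with DESeq2, 81 with limma, 69 with at least 1 CPM in every library, 4 with each set on its own, and 70, 65 and 21 when the 2nd control of the 1st set, the 2nd high-dose library or the 3rd control of the 2nd set was left out. The causes were not tested.

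Fold changes near 0 turned sign. With limma the difference between dose responses of Il1r1 was -0.0123. In the omissions the log2 fold change ran from -0.0533 to 0.194 for Il1rap and -0.152 to 0.0716 for Il18 at the high dose, -0.00937 to 0.697 for Il1a at the low dose, and -0.192 to 0.0556 for the difference of Il1rap. Between the controls it ran from -0.96 to 0.91 for Lcn2, -0.50 to 0.27 for Lrg1, -0.32 to 0.32 for Il1a and -1.08 to 0.12 for Il1b. Lcn2, Lrg1, Il1b and Il1r1 kept positive fold changes at both doses under every alternative that tested them, and Il33 stayed negative at the high dose. RLE and DESeq2 scaling moved the median of all genes to -0.02 at the high dose.

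With the replicate number as a block within each set, 0 of the 8 genes passed at the high dose and 0 between the controls, 1 list gene passed at the high dose, and 5 genes in all. The log2 fold change of Il1a between the controls became -0.86. The sources used here do not say whether a shared number pairs a control with an exposed library. The deviations of same-numbered control and exposed libraries correlated at 0.00424, 0.0583 and 0.0117 in the 1st set. In the 2nd set they correlated at 0.134, -0.151 and -0.341. Some control libraries correlated best with the exposed library of their own number, and others did not. With so few libraries in a group, these values cannot decide whether the libraries were paired.

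Depth limits Lcn2, Lrg1 and Il1b most, since their control libraries held at most 15, 10 and 4 counts.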
